A study of Mus musculus with 32 samples.

Results

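The genes described here are 36 genes of glucose breakdown and of the HIF pathway in mouse bone marrow-derived macrophages (BMDMs), measured by RNA-seq before and during stimulation with lipopolysaccharide (LPS). The genes were taken by name out of the 25067 genes of the count table: 3 glucose transporters, 3 hexokinases, the further enzymes of glycolysis with the enzymes that set its speed, Fbp1 of the reverse pathway, 2 lactate dehydrogenases, 2 lactate transporters, 4 enzymes of the pentose phosphate pathway, and Hif1a with 3 genes tied to it. BMDM-WT came from wild-type littermates and BMDM-Nur77-KO from mice that lack the nuclear receptor Nur77 in the whole body. The knockout was made by crossing mice with a loxP-flanked Nr4a1 gene, which encodes Nur77, to C57Bl6/J mice with Cre under the CMV promoter. The methods name that strain for the mice with Cre and none for the loxP line. The knockout mice used no longer carry Cre, although the labels give their genotype as cre. The donors were male and 6 to 12 weeks old, and their marrow was grown for 7 days in medium conditioned by L929 cells. Both genotypes were measured at 0, 1, 5 and 18 h of 100 ng/ml LPS, with 4 replicates in each of the 8 groups and 32 libraries in all. How many animals stand behind the 4 replicates is not given in the sources used here, so p-values measure the spread between these samples, which may be technical.

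Glycolysis splits glucose into pyruvate, and macrophages that meet LPS are known to lean on it, passing much of the pyruvate on to lactate. Entry of glucose, its phosphorylation by hexokinase and the phosphofructokinase step are the points at which the flow is mostly set, and most steps can be run by several isozymes from different genes. The pentose phosphate pathway branches off after hexokinase and yields NADPH and ribose. HIF-1α, the protein of Hif1a, is a transcription factor that is marked for breakdown by the prolyl hydroxylases of Egln1 and Egln3 when oxygen is plentiful, and many genes of glycolysis are known HIF-1α targets.

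The start of each gene was looked at for the core of the HIF response element. RefSeq promoter windows of 300 bases (build GRCm38.p6) that run from upstream of a transcription start to just past it were at hand for 35 of the 36 genes, 50 windows in all. The gene without one is Slc2a3. The core ACGTG stood on either strand in the windows of 21 of the 35 genes (60%), against 30.1% of the 8865 tested genes with a window and 21.8% of all 27025 genes with one. The other form of the core, GCGTG, stood in 23 of 35 (65.7%), against 56.2% and 35.2%. The site AAAGGTCA, to which Nur77 is known to bind as a monomer, stood in 1 of 35 (2.86%, Eno1), against 1.117% and 1.70%. A match describes these letters only and says nothing of binding. The windows of the 5 genes with a higher call in the knockout at 18 h are shown because these genes recur in the results. Capitals mark ACGTG or GCGTG on either strand, and CACGTG, which reads alike on both strands, holds ACGTG once on each.
Hif1a (chr12:73907617-73907916, plus strand): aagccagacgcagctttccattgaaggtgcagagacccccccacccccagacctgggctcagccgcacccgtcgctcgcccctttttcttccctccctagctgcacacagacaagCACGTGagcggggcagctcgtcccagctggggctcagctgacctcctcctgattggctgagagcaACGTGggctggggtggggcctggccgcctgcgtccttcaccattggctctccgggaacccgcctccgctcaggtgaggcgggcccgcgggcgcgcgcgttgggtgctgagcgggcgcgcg
Pfkfb3, first window (chr2:11502041-11502340, minus strand): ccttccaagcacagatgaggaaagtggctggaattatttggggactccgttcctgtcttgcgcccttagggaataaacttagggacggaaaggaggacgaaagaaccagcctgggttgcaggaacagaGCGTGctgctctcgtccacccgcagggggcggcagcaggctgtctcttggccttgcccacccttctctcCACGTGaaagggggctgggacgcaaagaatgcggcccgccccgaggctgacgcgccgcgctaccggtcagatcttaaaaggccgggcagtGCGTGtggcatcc
Pfkfb3, second window (chr2:11553880-11554179, minus strand): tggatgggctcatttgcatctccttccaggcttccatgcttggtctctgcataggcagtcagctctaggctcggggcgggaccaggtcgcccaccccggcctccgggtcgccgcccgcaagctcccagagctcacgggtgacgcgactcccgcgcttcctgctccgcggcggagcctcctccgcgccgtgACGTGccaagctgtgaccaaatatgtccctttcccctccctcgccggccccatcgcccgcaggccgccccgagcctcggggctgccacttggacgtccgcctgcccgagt
Pfkp (chr13:6648722-6649021, minus strand): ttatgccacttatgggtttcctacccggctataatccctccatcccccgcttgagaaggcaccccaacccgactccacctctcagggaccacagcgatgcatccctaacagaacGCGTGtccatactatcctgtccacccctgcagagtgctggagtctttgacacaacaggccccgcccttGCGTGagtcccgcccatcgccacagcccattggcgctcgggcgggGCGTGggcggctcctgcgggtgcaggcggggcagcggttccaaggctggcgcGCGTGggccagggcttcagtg
Slc16a1 (chr3:104638414-104638713, plus strand): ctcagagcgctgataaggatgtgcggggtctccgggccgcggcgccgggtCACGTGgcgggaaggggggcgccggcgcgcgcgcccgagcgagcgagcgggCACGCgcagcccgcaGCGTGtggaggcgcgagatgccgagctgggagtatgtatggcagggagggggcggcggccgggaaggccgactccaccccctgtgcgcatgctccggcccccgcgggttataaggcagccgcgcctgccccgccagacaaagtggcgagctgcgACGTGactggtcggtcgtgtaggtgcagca
Slc2a6 (chr2:27027949-27028248, minus strand): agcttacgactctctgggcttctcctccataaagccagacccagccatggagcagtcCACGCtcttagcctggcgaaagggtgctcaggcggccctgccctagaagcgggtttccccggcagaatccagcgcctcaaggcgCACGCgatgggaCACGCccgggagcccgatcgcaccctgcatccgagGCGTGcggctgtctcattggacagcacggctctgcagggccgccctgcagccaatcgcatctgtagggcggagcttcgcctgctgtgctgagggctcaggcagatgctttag
ACGTG is found in the windows of Hif1a, Pfkfb3 and Slc16a1, and GCGTG alone in those of Pfkp and Slc2a6, with 4 copies in each. None of these 6 windows holds AAAGGTCA.

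The libraries held 8742362 to 15780926 counts over the transcript kept for each gene. Levels are given as CPM, counts scaled to the size of the library by TMM, and levels of different genes are compared only as RPKM, which also divides by transcript length. Of the 36 genes, 35 passed the filter for testing, a mean RPKM above 1 in at least 1 group, as did 11186 genes in all. Fbp1, fructose bisphosphatase of the liver type, was left out with at most 3 counts in a library. Nr4a1, the targeted gene, had a lower level without LPS in the knockout, with 19.8 ± 4.36 CPM in BMDM-WT and 5.27 ± 1.19 in BMDM-Nur77-KO (SD, n = 4), and again at 1 h, with 438 ± 60.3 and 191 ± 40.0 CPM. At 5 h it was scarce in both genotypes, with 0.928 ± 0.115 and 0.312 ± 0.260 CPM. At 18 h it had 0.319 ± 0.131 and 0.225 ± 0.183 CPM, and the genotypes overlapped. The remaining counts can come from parts of the transcript outside the deletion, which the table does not separate. All 10 macrophage markers were among the tested genes. Their summed level was 11162 to 12811 CPM in BMDM-Nur77-KO at 18 h and 14179 to 14841 CPM in BMDM-WT at 18 h, against 14496 to 20081 CPM in the other 6 groups. The summed level of 6 dendritic cell markers was 13.5 to 21.7 CPM in BMDM-Nur77-KO at 18 h and 5.18 to 7.12 CPM in BMDM-WT at that time, against 13.0 to 26.9 CPM in both genotypes at 5 h, mostly Xcr1 and Clec9a, and Flt3 was at 0 in 18 of 32 libraries. The summed level of 10 neutrophil markers was 18.3 to 52.8 CPM over all libraries, with Ly6g at 0 in 27 of them, and at 1 h it was 44.3 to 52.8 CPM in BMDM-Nur77-KO against 28.5 to 38.4 in BMDM-WT, with no overlap. A T cell list reached 21.8 to 38.3 CPM at 5 h in BMDM-Nur77-KO and 27.4 to 31.7 CPM in BMDM-WT, nearly all of it Lck, and lists for B cells, fibroblasts, erythroid cells and mast cells stayed at or below 6.79 CPM. The part of these shifts in the results was not tested, and in bulk samples fewer cells of a type and less RNA per cell cannot be told apart.

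Before any result, 2 libraries have to be named that stood apart from the rest of their groups. The deviation from the group mean had a root mean square of 0.547 on the log2 scale in BMDM-Nur77-KO 5 h replicate 1 and of 0.388 in BMDM-Nur77-KO 18 h replicate 4, against 0.155 to 0.337 in the other 30 libraries. In both, the deviation ran against the GC content of the transcript (Spearman's rho over 11179 genes -0.654 and -0.650), as it did at smaller size in BMDM-WT 18 h replicate 3 (-0.658, root mean square 0.280). In BMDM-Nur77-KO 5 h replicates 3 and 4 it ran the other way (0.549 and 0.588), at root mean squares of 0.313 and 0.337. The group mean includes replicate 1, whose trend by itself pushes the deviations of the other libraries the opposite way. Replicate 2 of that group had a rho of 0.0112, so the libraries of this group differed by GC content also without replicate 1. Transcripts of Hif1a (41.3% GC), Bnip3 (41.6%) and Slc16a1 (42.9%) are the poorest in GC among the members and those of Slc16a3 and Slc2a6 (both 58.7%) the richest. In BMDM-Nur77-KO 5 h replicate 1, Hif1a stood at 1.78 times and Slc2a6 at 0.312 times the mean of the other 3 libraries, and in BMDM-Nur77-KO 18 h replicate 4 at 1.58 and 0.472 times. Values without both libraries, and after a correction of each library for its GC trend, are given where they end a call or where a difference is large.

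**Figure D1:**
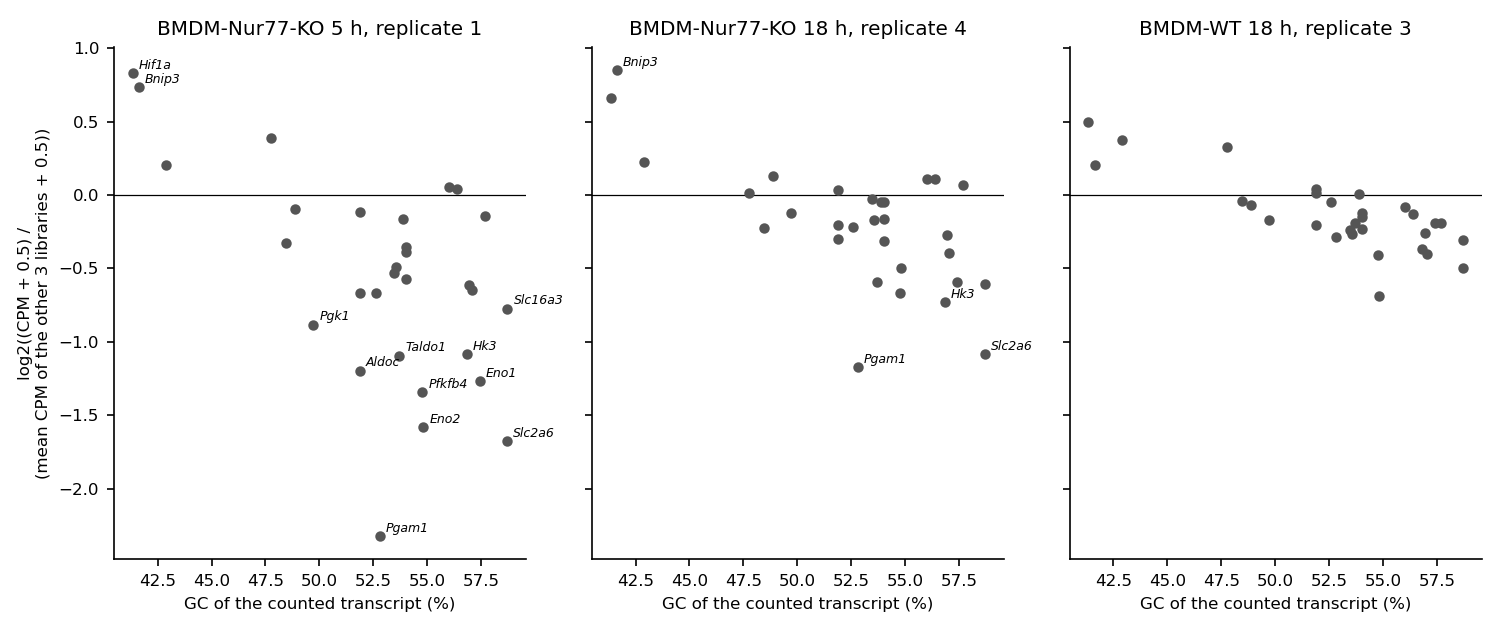
Each point is 1 gene, with the GC content of its counted transcript (%) on the x axis and, on the y axis, the log2 ratio of its CPM (plus 0.5) in 1 library to the mean of the other 3 libraries of the group, for the 30 members with a mean above 5 CPM. Hif1a and Bnip3, at the left, lie above 0 in all 3 libraries, and Slc2a6, at the right, lies below 0 in all 3.

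In BMDM-WT, 5 h of LPS raised Slc2a6, Pfkfb3, Hk2, Hif1a, Pfkp and Hk1 and lowered Slc2a3, Pfkfb2, Pfkfb4, Eno2 and Egln3. By 18 h Hk3, Pfkl, Slc16a3, Egln3, Bnip3 and G6pdx were also higher, Hif1a and Pfkp were no longer called, and Slc16a1, Aldoc and Ldhb were lower. Calls for LPS required a log2 change beyond 1 in either direction together with an adjusted p below 0.05 (quasi-likelihood test of edgeR, Benjamini-Hochberg adjustment over all genes tested). At 1 h, 1 of the 35 tested genes was higher, Slc2a6, and none lower, where 3.44% of all genes were called higher and 1.66% lower. At an unadjusted p under 0.05, 2 were lower at 1 h, and DESeq2 called none lower. At 5 h, 6 genes were higher and 5 lower (17.1% and 14.3%), against 15.9% and 17.8% of all genes. At 18 h, 10 were higher and 3 lower (28.6% and 8.57%), against 13.3% and 14.1% of all genes, and the median log2 change was 0.54 over the 35 genes and -0.0041 over all genes. In BMDM-Nur77-KO, 1 gene was higher and none lower at 1 h (all genes 3.25% and 1.27%), 7 were higher and 4 lower at 5 h (16.2% and 16.4%), and 11 were higher and 4 lower at 18 h (15.7% and 16.3%). No gene was lower at 1 h in BMDM-Nur77-KO at an unadjusted p under 0.05 or with DESeq2 either. From 5 to 18 h, 11 genes rose and 6 fell in BMDM-WT (all genes 15.8% and 14.3%), and 10 rose and 5 fell in BMDM-Nur77-KO (14.3% and 14.4%). The comparisons within a genotype share their 0 h or 5 h libraries.

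**Figure D2:**
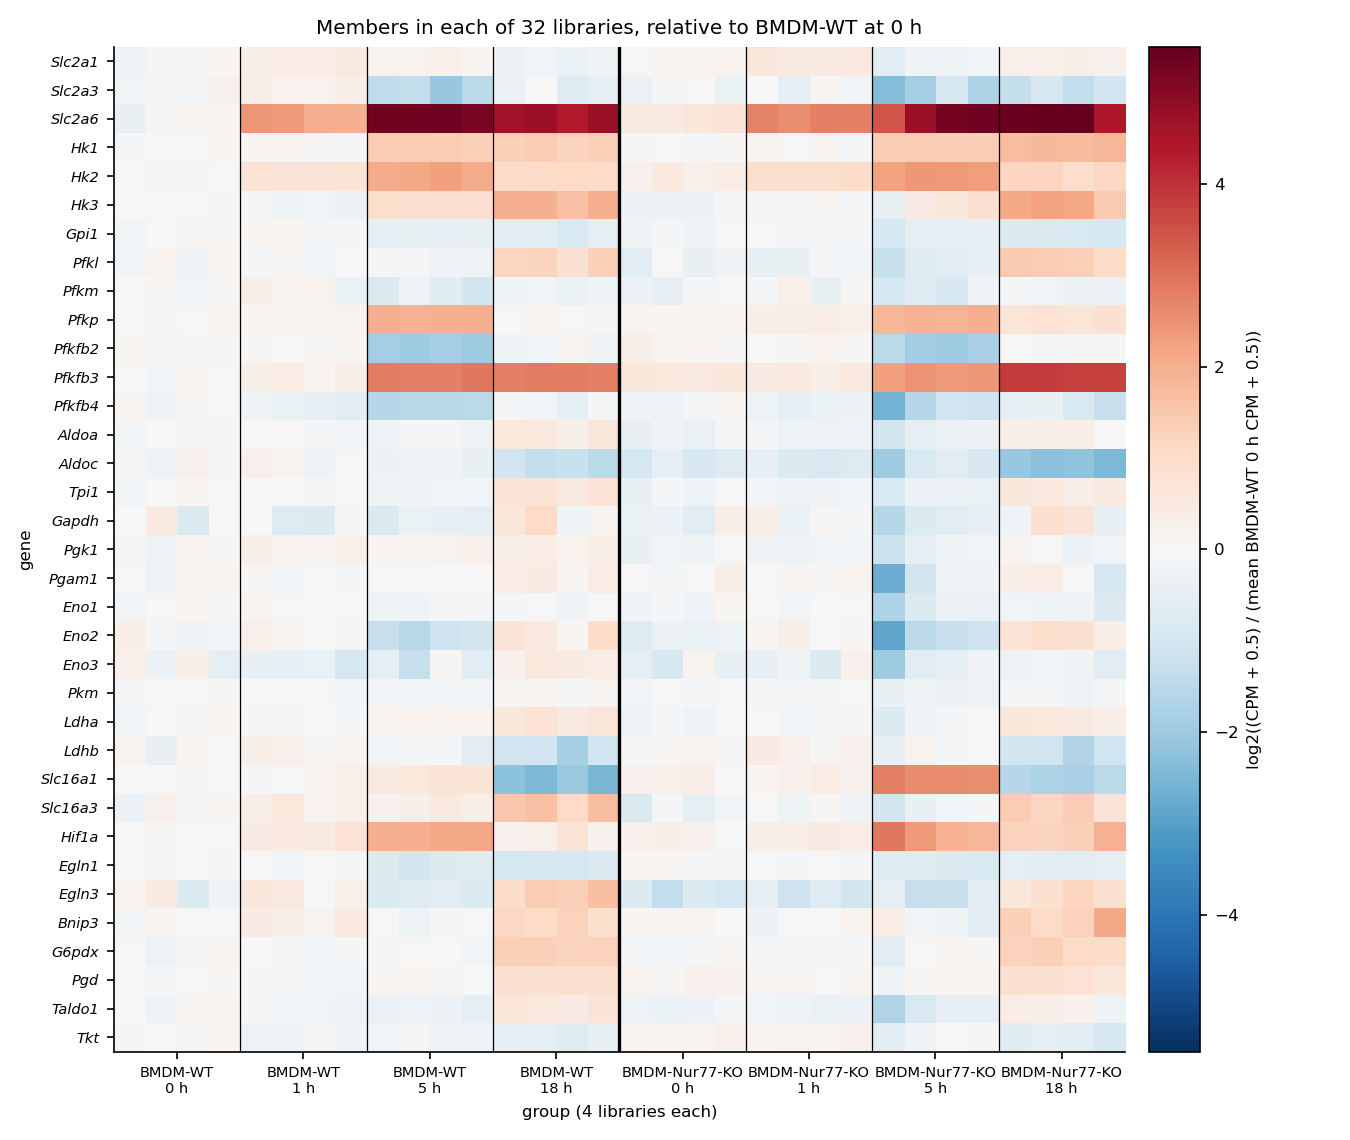
Heat map of the 35 tested members (rows, in order of their roles) in each of the 32 libraries (columns, 4 to a group), as log2 of CPM plus 0.5 relative to the mean of BMDM-WT at 0 h, with red above and blue below. Slc2a6, Pfkfb3, Hk2, Pfkp and Hif1a are red at 5 h in both genotypes, and Slc16a1 is red at 5 h mainly in BMDM-Nur77-KO.

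Calls between the genotypes numbered 2 before LPS and 2 after 1 h of it, then 5 after 5 h and 7 after 18 h. Calls between the genotypes required a log2 change beyond 0.58 in either direction and an adjusted p below 0.05. In BMDM-Nur77-KO at 0 h, none was called higher and 2 lower (Aldoc and Egln3), where 2.36% and 2.38% of all genes were called. At 1 h none was higher and the same 2 were lower, against 1.48% and 1.36%. At an unadjusted p under 0.05, 7 genes were higher at 0 h and 6 at 1 h, and DESeq2 called 1 higher at 0 h and none at 1 h. At 5 h, 1 gene was higher (Slc16a1) and 4 lower (Aldoc, Pfkl, Pgk1 and Slc16a3), against 5.66% and 3.13% of all genes. At 18 h, 5 were higher (Hif1a, Pfkfb3, Pfkp, Slc16a1 and Slc2a6) and 2 lower (Aldoc and Slc2a3), a share of 14.3% and 5.71% of the tested members, against 5.76% and 4.17% of all genes. Without the 2 libraries that stood apart, the calls at 5 h fell to 2, Slc16a1 higher and Slc16a3 lower, and the median log2 change of the members at 5 h went from -0.28 to -0.099. At 0 h the same omission added a call, Slc2a6 higher in BMDM-Nur77-KO (0.64, adjusted p = 0.00276). With the GC correction 4 members were called at 0 h, where Slc2a6 (0.84, adjusted p = 0.00273) and Pfkfb3 (0.68, adjusted p = 1.56e-07) were higher, and 4 at 5 h, where Pgam1 was lower (-0.69, adjusted p = 0.0318) and Pfkl and Slc16a3 were not called. The count of calls was thus not larger at 5 h than at 0 h under either setting. At 18 h the correction kept the 7 calls and added Slc2a1 higher (0.62, adjusted p = 1.22e-08). Leaving out BMDM-Nur77-KO 5 h replicate 1 alone also gave 2 calls at 5 h, and leaving out replicate 4 of that group gave 9. The 7 calls at 18 h were kept without the 2 libraries. A fit to the 8 libraries of 5 h alone called 1 gene, Slc16a1, with an adjusted p of 0.166, 0.0803, 0.108 and 0.0588 for Aldoc, Pfkl, Pgk1 and Slc16a3. Without a limit on the fold change, 4, 6, 14 and 14 members passed at 0, 1, 5 and 18 h. In BMDM-Nur77-KO 2, 4, 2 and 8 of them were higher, where 6.33%, 3.48%, 13.7% and 11.7% of all genes were higher. The other 2, 2, 12 and 6 were lower, where 6.34%, 3.06%, 10.7% and 9.93% of all genes were lower.

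The response to LPS relative to 0 h was also compared between the genotypes directly, with an adjusted p below 0.05 as the call. No member differed at 1 h (all genes 0.0447% higher and 0.0268% lower in BMDM-Nur77-KO), 3 did at an unadjusted p under 0.05, and DESeq2 called 1. Without the 2 libraries that stood apart, the response of Pfkfb3 at 1 h was smaller in BMDM-Nur77-KO (-0.41, adjusted p = 0.0431). With the GC correction its difference was -0.55 (adjusted p = 0.0339). At 5 h, the response was larger in BMDM-Nur77-KO for 1 member, Slc16a1, and smaller for 2, Pfkfb3 and Slc2a1 (all genes 1.74% and 1.38%). At 18 h it was larger for 5, Hif1a, Pfkp, Hk1, Pfkfb3 and Slc2a1, and smaller for 1, Hk2 (all genes 5.36% and 4.07%). Without the 2 libraries, 10 members differed at 18 h. Over all 11186 genes the calls at 18 h went from 600 higher and 455 lower to 1138 and 887. Slc2a1 and Pfkfb3 thus differed in opposite directions at 5 and at 18 h, below the BMDM-WT response first and above it later.

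**Figure D3:**
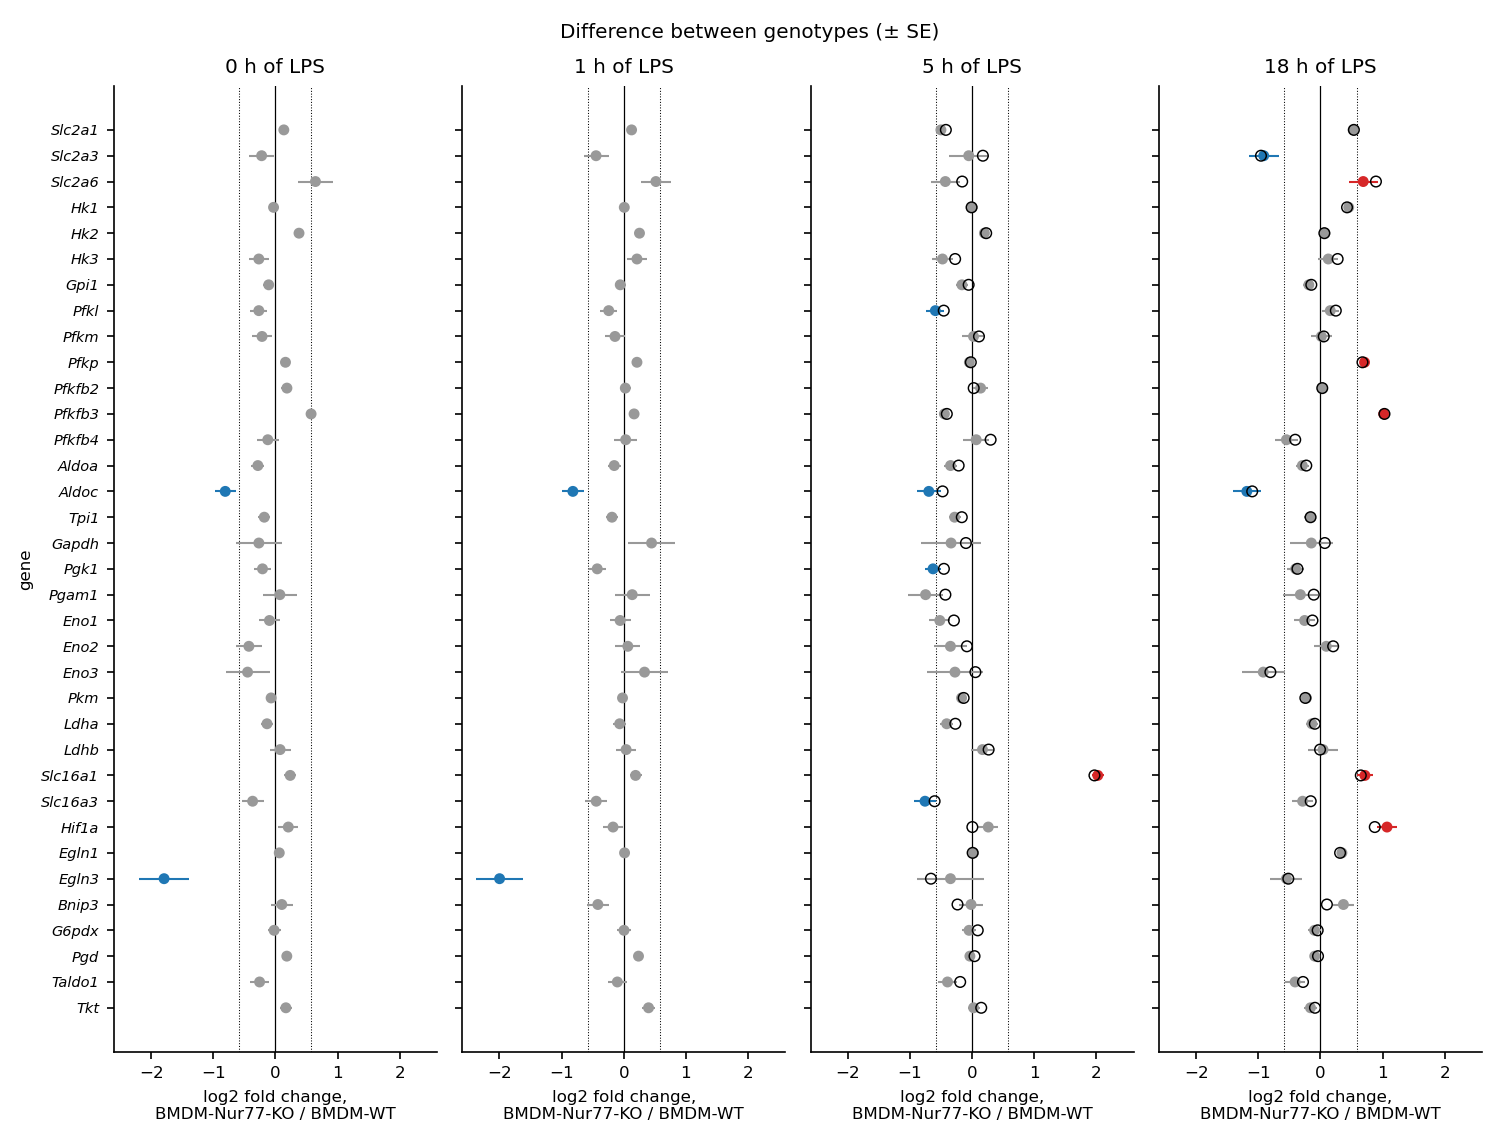
Log2 fold change of BMDM-Nur77-KO over BMDM-WT (x axis) with its SE for the 35 tested members (y axis) at each time, with called genes in red (higher) and blue (lower), the rest in grey and dotted lines at 0.58 either way. Open circles at 5 and 18 h give the value without the 2 libraries that stood apart, which at 5 h lie nearer to 0 for most members below 0, while Slc16a1 stays near 2.

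Of the glucose transporters, Slc2a6 rose most with LPS. Slc2a6 encodes GLUT6, a transporter of intracellular membranes, and its CPM in BMDM-WT was 5.44, 7.77, 8.35 and 7.94 in the 4 libraries at 0 h, 41.3, 39.3, 30.7 and 29.9 at 1 h, 311, 315, 325 and 292 at 5 h, then 192, 204, 164 and 212 at 18 h. No library at one time overlapped with those of another, and the rise was 42.0-fold at 5 h (log2 change 5.39 ± 0.30, adjusted p = 1.95e-16, SE of the fit). In BMDM-Nur77-KO the values were 10.6, 10.7, 12.2 and 12.9 at 0 h, 51.1, 45.6, 52.7 and 53.1 at 1 h, 86.7, 211, 302 and 323 at 5 h, then 329, 345, 401 and 169 at 18 h. All 4 BMDM-Nur77-KO libraries lay above all of BMDM-WT already at 0 h (log2 change 0.65 ± 0.29, adjusted p = 0.146) and at 1 h (log2 change 0.52 ± 0.25, adjusted p = 0.276), short of the call. Without the 2 libraries that stood apart, neither of which belongs to these groups, the adjusted p was 0.00276 at 0 h and 0.00323 at 1 h, the latter under the fold limit. The lowest values at 5 and 18 h are those of the 2 libraries that stood apart, and at 18 h the other 3 lie above all of BMDM-WT (log2 change 0.69 ± 0.24, adjusted p = 0.0350). Without those libraries the difference at 18 h was 0.89 (adjusted p = 4.83e-07), while leaving out any other single library of the 2 groups ended the call, with an adjusted p of 0.0521 to 0.135, as did a fit to the 8 libraries of 18 h alone (adjusted p = 0.0629). Slc2a1 encodes GLUT1, the transporter of the surface of most cells. Its CPM was 80.5, 79.3, 86.2 and 77.8 in BMDM-WT and 47.2, 59.2, 58.8 and 63.2 in BMDM-Nur77-KO at 5 h, and 56.1, 64.2, 55.3 and 60.7 against 84.8, 84.4, 88.0 and 83.1 at 18 h. The genotypes did not overlap at either time and changed places between them (-0.50 ± 0.08 at 5 h and 0.53 ± 0.08 at 18 h, adjusted p = 2.37e-05 and 3.51e-06), though both differences stayed under the fold limit, which the one at 18 h passed with the GC correction. At 0 h Slc2a1 had 62.2, 74.2, 68.2 and 76.8 CPM in BMDM-WT and 71.7, 79.1, 78.4 and 80.0 in BMDM-Nur77-KO, which overlap. The difference in the response was -0.64 ± 0.11 at 5 h (adjusted p = 0.000529) and 0.39 ± 0.11 at 18 h (adjusted p = 0.0153). Slc2a3, which encodes GLUT3, was scarce, with 4.44, 4.69, 4.71 and 5.83 CPM in BMDM-WT at 0 h, 1.59, 1.71, 0.774 and 1.41 at 5 h, then 3.84, 4.86, 2.78 and 3.28 at 18 h. It fell at 5 h (log2 change -1.84 ± 0.26, adjusted p = 2.43e-07). At 18 h BMDM-Nur77-KO had 1.70, 2.40, 1.61 and 2.12 CPM, all below the lowest BMDM-WT library (log2 change -0.91 ± 0.24, adjusted p = 0.00579).

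Hexokinase traps glucose inside the cell as its phosphate, and the 3 genes rose at different times. Hk2, the isozyme known to be induced in activated macrophages and tumours, had 56.2, 59.3, 54.7 and 57.0 CPM in BMDM-WT at 0 h, 95.0, 93.9, 93.5 and 95.5 at 1 h, 237, 249, 271 and 232 at 5 h, then 116, 118, 120.3 and 118 at 18 h. It peaked at 5 h (log2 change 2.12 ± 0.07, adjusted p = 1.14e-22) with no overlap between any of the times. BMDM-Nur77-KO held 67.6, 82.3, 69.4 and 76.2 CPM at 0 h, 266, 301, 287 and 280.1 at 5 h, then 129, 128, 112 and 126 at 18 h. Its start was thus higher (log2 change 0.38 ± 0.06, adjusted p = 0.000110, under the fold limit), and its response at 18 h differed by -0.31 ± 0.09 on the log2 scale (adjusted p = 0.0250). That last call was lost when BMDM-WT 0 h replicate 3, BMDM-Nur77-KO 0 h replicate 2 or BMDM-Nur77-KO 18 h replicate 3 was left out, with values of -0.29 (adjusted p = 0.0559), -0.25 (adjusted p = 0.0805) and -0.26 (adjusted p = 0.0709), and also with no filter on low counts, at -0.29 (adjusted p = 0.117), and in a fit to the compared libraries alone, at -0.31 (adjusted p = 0.0699). Hk1, the constitutive isozyme of most tissues, had 69.6, 71.1, 71.2 and 76.9 CPM at 0 h, 191, 192, 189 and 180.1 at 5 h, then 181, 189.7, 168 and 180.1 at 18 h in BMDM-WT. It rose at 5 h (log2 change 1.38 ± 0.06, adjusted p = 1.89e-18) and held that level. In BMDM-Nur77-KO it had 69.6, 72.4, 66.3 and 74.7 CPM at 0 h, 192, 191, 186 and 183 at 5 h, then 238, 246, 241 and 259.9 at 18 h, so that the genotypes overlapped at 0 and 5 h and separated at 18 h (log2 change 0.45 ± 0.06, adjusted p = 1.18e-06, under the fold limit). The response at 18 h differed by 0.48 ± 0.09 (adjusted p = 0.000261). Hk3, the isozyme typical of myeloid cells, was the most abundant of the 3 and went from 346 ± 12.7 CPM (SD) at 0 h to 663 ± 11.1 at 5 h and 1271 ± 152 at 18 h in BMDM-WT (log2 change 1.88 ± 0.17, adjusted p = 2.95e-11).

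Phosphofructokinase commits the sugar to glycolysis, and its platelet-type gene Pfkp rose for a short time. Pfkp had 82.7, 78.3, 83.7 and 95.9 CPM in BMDM-WT at 0 h, 338, 323, 334 and 331 at 5 h, then 83.5, 93.7, 84.3 and 88.0 at 18 h. It was thus 3.89-fold higher at 5 h (log2 change 1.96 ± 0.06, adjusted p = 2.88e-22) and back in the range of 0 h at 18 h (0.04 ± 0.06, adjusted p = 0.610). BMDM-Nur77-KO held 94.2, 92.3, 96.7 and 98.0 CPM at 0 h, 306, 326, 312 and 342 at 5 h, then 136, 147, 136 and 153 at 18 h. The peaks of the genotypes overlapped, and at 18 h every BMDM-Nur77-KO library lay above every BMDM-WT library (log2 change 0.71 ± 0.06, adjusted p = 3.63e-10). The response at 18 h differed by 0.55 ± 0.09 (adjusted p = 5.58e-05). Of the counted Pfkp transcript, 16.0% lies in 100-base stretches that also occur, on either strand, in a transcript of Pitrm1. Whether the genes overlap there was not checked, so how reads from this part were assigned is uncertain. Pfkl, the liver-type gene, had 35.6, 35.7, 32.5 and 32.1 CPM in BMDM-WT and 15.6, 22.8, 24.2 and 27.3 in BMDM-Nur77-KO at 5 h. The groups did not overlap (log2 change -0.59 ± 0.15, adjusted p = 0.00435), but the difference stood at the fold limit and passed under it, to -0.46 without the libraries that stood apart and to -0.40 with the GC correction. It also passed under the limit without BMDM-WT 5 h replicate 1, at -0.57 (adjusted p = 0.0147), and without replicate 2 of that group, at -0.57 (adjusted p = 0.0153). From 5 to 18 h Pfkl rose in both genotypes, to 85.2, 86.8, 66.6 and 92.3 CPM in BMDM-WT and 102, 99.3, 93.4 and 74.6 in BMDM-Nur77-KO (1.28 ± 0.14 and 2.03 ± 0.14, adjusted p = 2.09e-09 and 1.35e-13). Pfkm, the muscle-type gene, had group means of 6.71 to 11.9 CPM and no call in any comparison.

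The bifunctional enzymes of the Pfkfb genes make and remove the sugar bisphosphate that activates phosphofructokinase, and LPS moved them in opposite directions. Pfkfb3, the form with the strongest kinase activity, had 47.8, 42.6, 51.5 and 47.1 CPM in BMDM-WT at 0 h, 59.99, 62.5, 50.6 and 60.5 at 1 h, 336, 321, 325 and 357 at 5 h, then 326, 338, 331 and 325 at 18 h. It rose 7.09-fold by 5 h (log2 change 2.83 ± 0.07, adjusted p = 1.26e-24) and stayed there. In BMDM-Nur77-KO it had 71.99, 70.2, 67.0 and 72.1 CPM at 0 h, 64.0, 68.5, 60.6 and 68.8 at 1 h, 225, 263, 243 and 251 at 5 h, then 687, 689.8, 644 and 650.4 at 18 h. The knockout libraries lay above all of BMDM-WT at 0 h, below all of them at 5 h and above them again at 18 h. At 0, 5 and 18 h the differences were 0.57 ± 0.07, -0.45 ± 0.07 and 1.02 ± 0.07 (adjusted p = 6.7e-07, 2.17e-05 and 1e-12), of which the last passed the fold limit. The response differed by -1.02 ± 0.10 at 5 h (adjusted p = 4.9e-08) and by 0.44 ± 0.10 at 18 h (adjusted p = 0.00212), with -0.98 and 0.45 without the libraries that stood apart. At 1 h it was called smaller in BMDM-Nur77-KO without those libraries and with the GC correction, but not in the main fit. Pfkfb2, the heart form, had 25.1, 24.1, 21.4 and 21.2 CPM in BMDM-WT at 0 h, 5.89, 5.60, 6.19 and 5.54 at 5 h, then 19.4, 20.9, 25.4 and 20.0 at 18 h. It fell at 5 h (log2 change -1.98 ± 0.10, adjusted p = 7.15e-17) and was back at 18 h, and BMDM-Nur77-KO showed 7.91, 5.77, 5.63 and 6.36 CPM at 5 h, a range that overlaps with BMDM-WT. Pfkfb2 shares 39.2% of its transcript with a predicted gene, which makes its level uncertain. Pfkfb4, a further form known as a hypoxia-inducible one, had 42.5, 33.0, 40.9 and 39.7 CPM in BMDM-WT at 0 h, 12.7, 13.2, 13.0 and 13.4 at 5 h, then 37.3, 35.4, 27.3 and 36.4 at 18 h, and fell and returned in the same way (log2 change -1.57 ± 0.20, adjusted p = 2.3e-08). In BMDM-Nur77-KO it had 6.07, 12.9, 18.1 and 17.4 CPM at 5 h and 26.6, 29.0, 21.8 and 16.0 at 18 h.

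**Figure D4:**
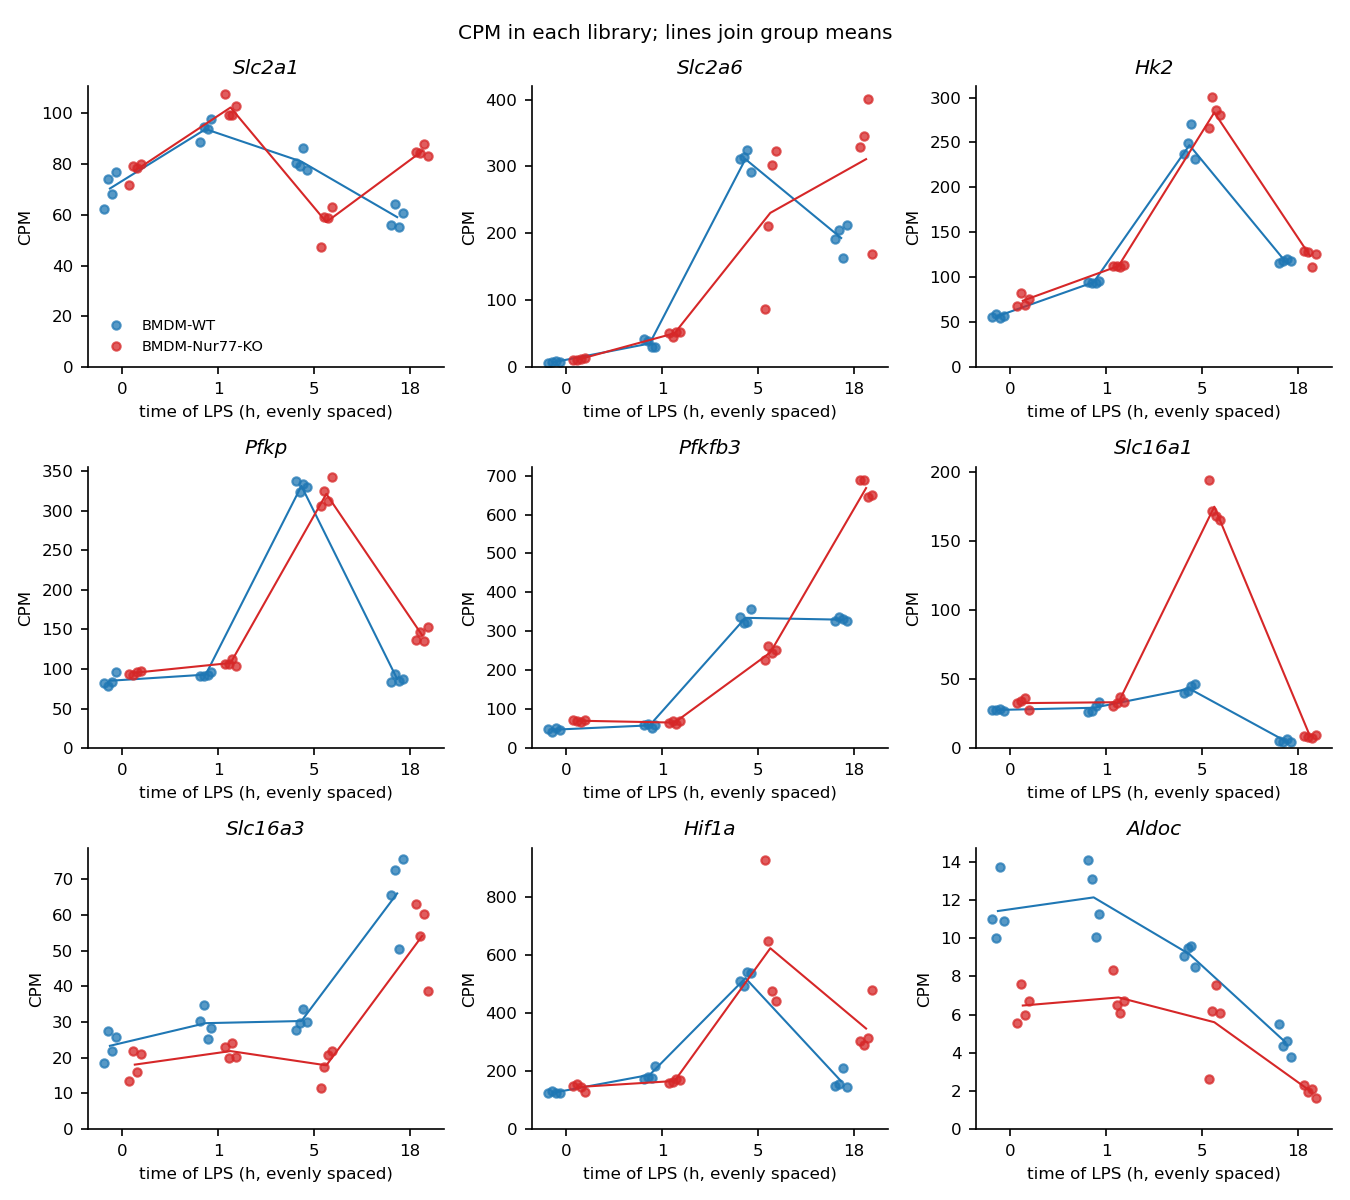
CPM (y axis, from 0) of 9 members in each library against the time of LPS (x axis, evenly spaced), for BMDM-WT in blue and BMDM-Nur77-KO in red, with lines through the group means of 4 libraries. Pfkfb3 and Slc2a1 of BMDM-Nur77-KO lie below BMDM-WT at 5 h and above it at 18 h, and Slc16a1 stands apart at 5 h, with 165 to 194 CPM against 39.6 to 46.2.

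Enzymes of the middle and lower pathway were among the most abundant members, and Aldoa, Pkm, Ldha, Pgk1, Tpi1 and Eno1 were not called with LPS at any time. As mean RPKM in the group where each was highest, Aldoa stood at 709, Pkm at 579, Ldha at 569, Pgk1 at 324, Tpi1 at 240.2 and Eno1 at 202, while in the upper part of the pathway Hk3 stood at 432, Pfkfb3 at 302, Hk1 at 57.7 and Pfkl at 24.8. Pkm, pyruvate kinase of the muscle type and the last enzyme of the chain, had 1223, 1349, 1333 and 1386 CPM in BMDM-WT at 0 h, 1196, 1183, 1204 and 1183 at 5 h, then 1455, 1462, 1276 and 1461 at 18 h, and was not called by LPS. BMDM-Nur77-KO had 983, 1098, 1064 and 1089 CPM at 5 h and 1238, 1237, 1107 and 1252 at 18 h, below all of BMDM-WT at both times but by little (-0.17 ± 0.06 and -0.23 ± 0.06, adjusted p = 0.0436 and 0.00742). After the GC correction the differences were 0.09 and -0.11 (adjusted p = 0.530 and 0.465), so that the sign at 5 h turned. Pgk1, phosphoglycerate kinase, the first step that yields ATP, had 501, 510.0, 542 and 567 CPM in BMDM-WT and 209.6, 337, 403 and 420.5 in BMDM-Nur77-KO at 5 h. It was called lower (log2 change -0.63 ± 0.14, adjusted p = 0.00149), and the value was -0.45 without the libraries that stood apart, short of the fold limit. Pgk1 shares 67.0% of its transcript with 3 other genes, which makes its level uncertain. Aldoc, the brain-type aldolase, was the one enzyme of the chain called lower at all 4 times, with 11.0, 10.0, 13.7 and 10.9 CPM in BMDM-WT and 5.57, 7.62, 6.00 and 6.71 in BMDM-Nur77-KO at 0 h, and 14.1, 13.1, 10.1 and 11.3 against 8.32, 6.48, 6.09 and 6.70 at 1 h. At 5 h it had 9.06, 9.50, 9.62 and 8.48 against 2.6, 6.19, 7.54 and 6.07 CPM, and at 18 h 5.49, 4.38, 4.61 and 3.80 against 2.32, 1.96, 2.1 and 1.63. The groups did not overlap at any of the times, and the log2 changes were -0.81 ± 0.17, -0.82 ± 0.17, -0.70 ± 0.19 and -1.19 ± 0.22, with adjusted p = 0.00177, 0.00211, 0.00905 and 0.000169. Without the libraries that stood apart the value at 5 h was -0.48, under the fold limit. Aldoc held under 1% of the aldolase RPKM in every group (0.231% ± 0.0412 in BMDM-WT and 0.123% ± 0.00970 in BMDM-Nur77-KO at 18 h), so that Aldoa makes up nearly all of it.

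Gapdh, the glyceraldehyde phosphate dehydrogenase often used as a reference gene, could not be read from this table. Its CPM was 2.30, 3.44, 1.14 and 2.33 in BMDM-WT at 0 h, 1.13, 1.71, 1.55 and 1.41 at 5 h, then 3.84, 5.52, 1.91 and 2.59 at 18 h, from 4 to 66 counts per library over the series. Of its transcript, 85.8% occurs in transcripts of 86 other genes, and alignments of low mapping quality were removed. It was called higher at 18 than at 5 h in both genotypes (1.24 ± 0.41 and 1.43 ± 0.41, adjusted p = 0.00823 and 0.00280), and in BMDM-WT this call was lost without replicate 2 of 18 h, at 0.93 (adjusted p = 0.0544). The same limit holds in part for Eno1 (59.0% shared), Pgam1 (39.7%) and Bnip3 (33.5%). The other 7 enzymes of this stretch were Gpi1, Aldoa, Tpi1, Pgam1, Eno1, Eno2 and Eno3. None of them was called between the genotypes, other than Pgam1 at 5 h with the GC correction. Pgam1 at 19.5 CPM and Eno1 at 124 CPM in BMDM-Nur77-KO 5 h replicate 1 stood below the other libraries of that group. Eno2, the neuronal enolase, fell at 5 h in BMDM-WT from 15.0 ± 2.88 to 6.18 ± 1.02 CPM (log2 change -1.28 ± 0.23, adjusted p = 1.19e-05) and in BMDM-Nur77-KO as well (log2 change -1.20 ± 0.23, adjusted p = 4.24e-05, -0.94 without the libraries that stood apart).

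**Figure D5:**
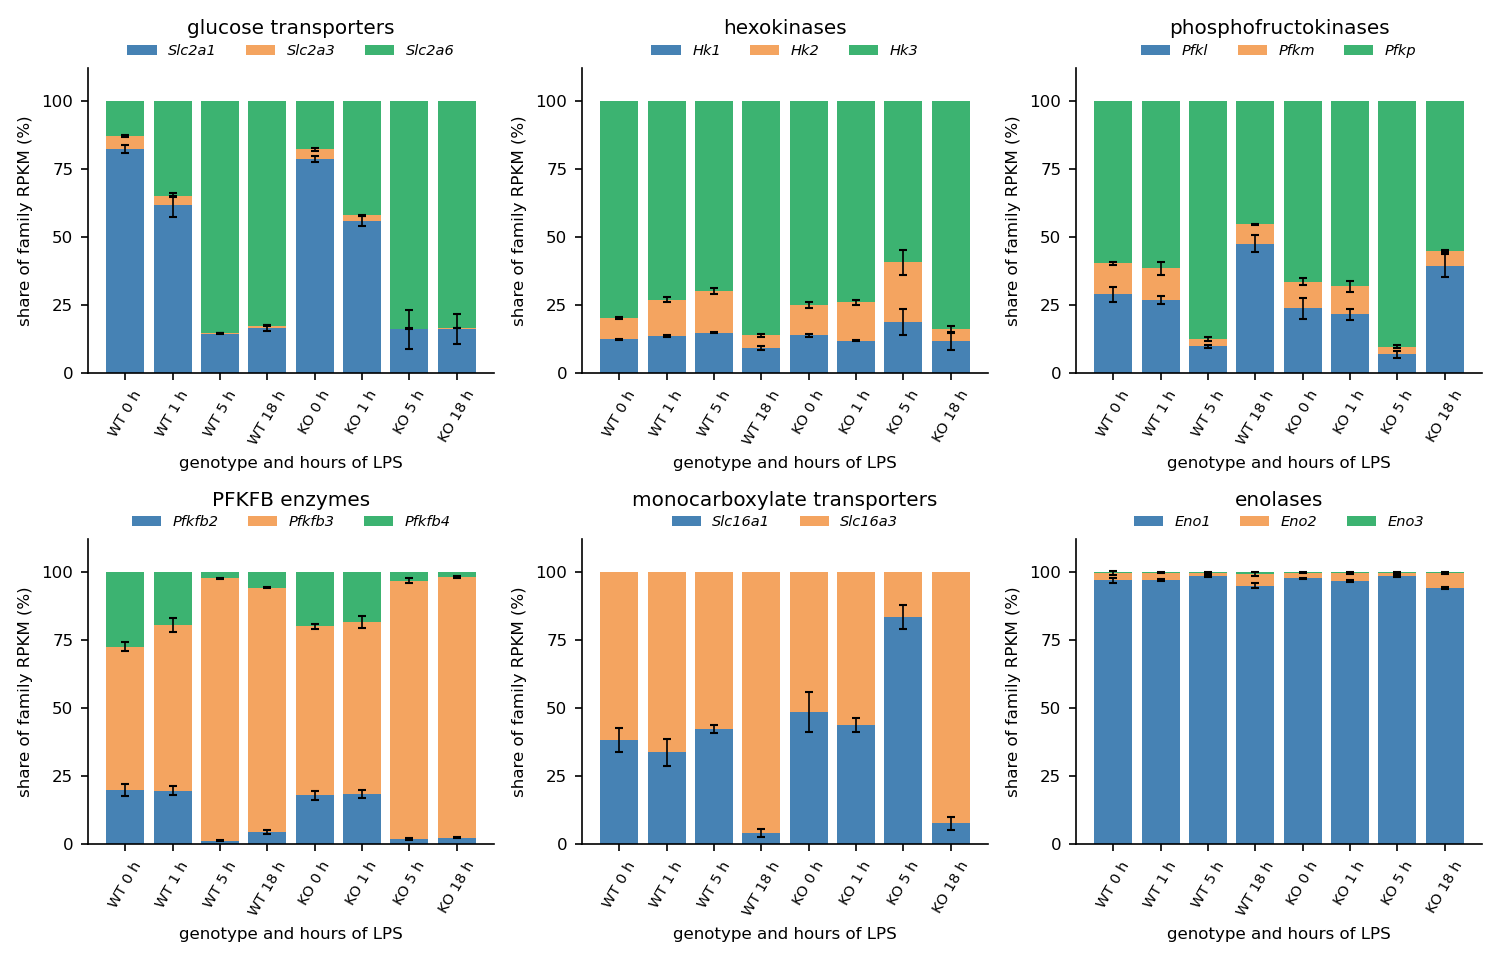
Share of each gene (y axis, % of the summed RPKM of its family, mean of 4 libraries with the SD at the upper edge of a share) in the 8 groups (x axis, WT for BMDM-WT and KO for BMDM-Nur77-KO) for 6 isozyme families. Slc2a6 goes from a small share at 0 h to most of the glucose transporter RPKM at 5 and 18 h, Pfkfb3 goes from 52.5% ± 1.75 of its family in BMDM-WT at 0 h to 96.3% ± 0.184 at 5 h, and the share of Slc16a1 is largest in BMDM-Nur77-KO at 5 h.

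Read as shares of the summed RPKM, the families changed their make-up with LPS. Slc2a1 held 82.2% ± 1.44 (SD, n = 4) of the RPKM of the 3 glucose transporters in BMDM-WT at 0 h and 14.6% ± 0.319 at 5 h, and Slc2a6 went from 13.1% ± 1.57 to 85.2% ± 0.282, while the sum rose from 26.3 ± 2.61 to 171 ± 7.39 RPKM. Pfkfb3 went from 52.5% ± 1.75 of its family at 0 h to 96.3% ± 0.184 at 5 h and 89.6% ± 0.275 at 18 h. Pfkp held 59.7% ± 3.15 of the phosphofructokinases at 0 h, 87.4% ± 1.06 at 5 h and 45.4% ± 2.89 at 18 h, when Pfkl had 47.5% ± 3.06. Hk3 was the leading hexokinase throughout, with 79.8% ± 0.328 at 0 h, 69.9% ± 1.12 at 5 h and 86.1% ± 1.30 at 18 h. The summed PFKFB level at 18 h was 316 ± 12.4 RPKM in BMDM-Nur77-KO and 166 ± 2.56 in BMDM-WT. These shares are descriptions of the measured transcripts and were not tested.

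At the lactate end of the pathway, the transporter gene Slc16a1 was higher at 5 and 18 h in BMDM-Nur77-KO. Slc16a1 encodes MCT1, which moves lactate and pyruvate across the cell membrane in either direction. It had 27.3, 27.4, 28.6 and 27.1 CPM in BMDM-WT at 0 h, 25.9, 27.0, 30.3 and 33.4 at 1 h, 39.6, 41.2, 44.9 and 46.2 at 5 h, then 5.30, 4.57, 6.34 and 4.49 at 18 h. BMDM-Nur77-KO held 32.5, 34.1, 36.1 and 27.5 at 0 h, 30.2, 32.6, 37.0 and 33.0 at 1 h, 194, 172, 168 and 165 at 5 h, then 8.94, 8.01, 7.55 and 9.61 at 18 h. Both genotypes were higher at 5 h than at 0 h (0.64 ± 0.10 and 2.42 ± 0.10, of which the second passed the fold limit) and fell below their starting level at 18 h, and at 5 h the lowest BMDM-Nur77-KO library had over 3 times the CPM of the highest BMDM-WT library. The difference was 4.06-fold at 5 h (log2 change 2.02 ± 0.10, adjusted p = 6.94e-16) and 1.64-fold at 18 h (log2 change 0.72 ± 0.12, adjusted p = 4.83e-05). The response to LPS at 5 h differed by 1.78 ± 0.13 on the log2 scale (adjusted p = 3.65e-10). At 5 h the value was 1.97 without the libraries that stood apart and 1.84 with the GC correction. Slc16a3, which encodes MCT4, the exporter of lactate from glycolytic cells, went the other way between the genotypes at 5 h, with 27.9, 29.7, 33.6 and 29.9 CPM in BMDM-WT and 11.5, 17.3, 20.7 and 21.9 in BMDM-Nur77-KO (log2 change -0.76 ± 0.18, adjusted p = 0.00365). This was -0.60 without the libraries that stood apart, still called, and -0.56 with the GC correction, just under the fold limit. By 18 h it had risen to 65.7, 72.6, 50.4 and 75.6 CPM in BMDM-WT and 63.1, 54.1, 60.4 and 38.8 in BMDM-Nur77-KO, which overlap. Of the RPKM of both transporters, Slc16a1 held 42.2% ± 1.5 in BMDM-WT and 83.3% ± 4.56 in BMDM-Nur77-KO at 5 h, and 4.03% ± 1.43 and 7.79% ± 2.37 at 18 h.

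Lactate dehydrogenase interconverts pyruvate and lactate. Ldha, the muscle-type subunit, had 521, 562, 610.3 and 613 CPM in BMDM-WT at 0 h, 637, 649.9, 642 and 657 at 5 h, then 898, 989.6, 815 and 924 at 18 h, a rise at 18 h under the fold limit (log2 change 0.65 ± 0.10, adjusted p = 1.41e-06). In BMDM-Nur77-KO it had 497, 540.3, 499 and 563 CPM at 0 h, 338, 485, 545 and 579 at 5 h, then 881, 862, 811 and 740.2 at 18 h. At 5 h all 4 values were below those of BMDM-WT (log2 change -0.41 ± 0.10, adjusted p = 0.00463, under the fold limit), and at 18 h the groups overlapped. Ldhb, the heart-type subunit, was scarce and fell, from 5.05, 3.23, 5.01 and 4.37 CPM in BMDM-WT at 0 h to 1.83, 1.90, 0.869 and 1.81 at 18 h (log2 change -1.45 ± 0.20, adjusted p = 2.12e-07). BMDM-Nur77-KO had 4.2, 4.57, 5.00 and 4.63 CPM at 0 h and 1.97, 1.78, 1.12 and 1.79 at 18 h, and fell likewise (log2 change -1.48 ± 0.20, adjusted p = 8.57e-08). Ldha made up 99.1% ± 0.200 of the RPKM of both at 0 h in BMDM-WT.

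Hif1a rose with LPS in both genotypes and at 18 h stood higher without Nur77. In BMDM-WT it had 126, 130.0, 124 and 123 CPM at 0 h, 173, 180.3, 178 and 218 at 1 h, 511, 493, 542 and 537 at 5 h, then 148, 154, 212 and 146 at 18 h. The rise at 5 h was 4.14-fold (log2 change 2.05 ± 0.17, adjusted p = 3.57e-12). BMDM-Nur77-KO held 150.4, 155, 146 and 129 CPM at 0 h, 157, 164, 174 and 169 at 1 h, 929.6, 649, 475 and 443 at 5 h, then 302, 291, 314 and 479.5 at 18 h. The genotypes overlapped at 5 h (0.26 ± 0.16, adjusted p = 0.230), and at 18 h every BMDM-Nur77-KO library lay above every BMDM-WT library (log2 change 1.07 ± 0.16, adjusted p = 9.49e-06). The highest value at 5 h came from a library named above for its trend against GC content. The highest of each genotype at 18 h did too. The 218 CPM at 1 h is that of BMDM-WT 1 h replicate 4, whose deviation also ran against GC content (rho -0.481). Without BMDM-Nur77-KO 5 h replicate 1 and 18 h replicate 4 the difference at 18 h was 0.87 (adjusted p = 1.66e-07), and with the GC correction 0.92 (adjusted p = 2.39e-12). The response at 18 h differed between the genotypes by 0.86 ± 0.23 (adjusted p = 0.0132), or 0.67 (adjusted p = 0.00163) without those libraries.

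The hydroxylase genes went different ways. Egln1, which encodes PHD2, the main oxygen sensor of the pathway, fell from 45.0 ± 1.64 CPM at 0 h to 25.9 ± 2.68 at 5 h in BMDM-WT (log2 change -0.80 ± 0.07, adjusted p = 3.24e-11, under the fold limit), and at 18 h it was 22.5 to 26.7 CPM in BMDM-WT and 29.5 to 32.3 in BMDM-Nur77-KO (log2 change 0.34 ± 0.07, adjusted p = 0.000624, under the fold limit). Egln3, which encodes PHD3 and is itself a known HIF target, was near the lower end of what was measured, with 1.38, 1.77, 0.456 and 0.874 CPM in BMDM-WT and 0.457, 0.127, 0.462 and 0.320 in BMDM-Nur77-KO at 0 h. The knockout values rest on 2 to 6 counts per library and overlap with BMDM-WT (log2 change -1.79 ± 0.41, adjusted p = 0.00324). At 1 h it had 1.99, 1.83, 1.14 and 1.46 CPM in BMDM-WT and 0.601, 0.226, 0.481 and 0.301 in BMDM-Nur77-KO, from 3 to 7 counts per library in the knockout, with no overlap (log2 change -2.0 ± 0.38, adjusted p = 0.000721). It rose in both genotypes by 18 h, to 2.74, 3.81, 3.48 and 4.66 CPM in BMDM-WT and 1.97, 2.49, 3.15 and 2.36 in BMDM-Nur77-KO (1.66 ± 0.28 and 2.90 ± 0.37, adjusted p = 5.06e-06 and 4.14e-08). Its fall at 5 h in BMDM-WT (log2 change -1.22 ± 0.42, adjusted p = 0.0108) was lost without BMDM-WT 0 h replicate 2, at -0.86 (adjusted p = 0.0841). Bnip3, a HIF target that encodes a receptor for the removal of mitochondria, rose at 18 h in BMDM-WT from 16.8 ± 1.38 to 37.2 ± 3.42 CPM (log2 change 1.14 ± 0.17, adjusted p = 8.79e-07) and was not called between the genotypes.

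Of the 4 pentose phosphate genes, G6pdx rose past the fold limit, at 18 h and in both genotypes. G6pdx, glucose-6-phosphate dehydrogenase, the entry enzyme of the pathway, had 187, 154, 195 and 204 CPM in BMDM-WT at 0 h, 178, 189.6, 188 and 169 at 5 h, then 454, 457, 439 and 447 at 18 h (log2 change 1.28 ± 0.11, adjusted p = 5.37e-12). BMDM-Nur77-KO had 178, 169, 179.6 and 204 CPM at 0 h, 121, 182, 205 and 192 at 5 h, then 451, 462, 393 and 375 at 18 h (log2 change 1.20 ± 0.11, adjusted p = 1.74e-11). Neither genotype passed the test at 5 h, and the difference between them at 18 h was -0.10 ± 0.10 (adjusted p = 0.559). Pgd, 6-phosphogluconate dehydrogenase, the second NADPH-yielding step, had 264, 256, 272 and 284 CPM in BMDM-WT at 0 h, 286, 292, 282 and 273 at 5 h, then 496, 475, 480.0 and 511 at 18 h, and 305, 285, 319 and 312 at 0 h and 482, 479, 471 and 408 at 18 h in BMDM-Nur77-KO. It rose by 0.87 ± 0.07 and 0.59 ± 0.07 on the log2 scale at 18 h (adjusted p = 1.61e-12 and 5.39e-09), under the fold limit in both. Taldo1 and Tkt, transaldolase and transketolase of the arm that does not oxidise, moved apart at 18 h in BMDM-WT, by 0.62 ± 0.16 and -0.51 ± 0.10 (adjusted p = 0.00103 and 3.32e-05). None of the 4 genes was called between the genotypes at any time. Of 10 further genes of the pathway, 9 were tested. In BMDM-Nur77-KO 1 was higher and 1 lower at 0 h (all genes 2.36% and 2.38%) and at 1 h (1.48% and 1.36%). None was higher and 2 lower at 5 h (5.66% and 3.13%), and none was called either way at 18 h (5.76% and 4.17%). At an unadjusted p under 0.05, 1 was higher at 5 h, and none was higher and 2 lower at 18 h, and DESeq2 called none of these. The gene higher at 0 and 1 h was Rpia, ribose phosphate isomerase (log2 change 0.64 ± 0.10, adjusted p = 3.69e-05 at 0 h). Dera, an aldolase that splits deoxyribose phosphate, was lower at 0, 1 and 5 h (log2 change -0.78 ± 0.09, adjusted p = 3.42e-07 at 5 h), and H6pd, the enzyme of the endoplasmic reticulum, at 5 h (log2 change -0.66 ± 0.17, adjusted p = 0.00746). H6pd was not called without the libraries that stood apart, which left 1 lower at 5 h. At 5 h of LPS in BMDM-WT, none was higher and 1 lower (all genes 15.9% and 17.8%). The lower one was Shpk, sedoheptulokinase (log2 change -2.19 ± 0.26, adjusted p = 1.03e-08). At an unadjusted p under 0.05, 1 was higher, and DESeq2 called none higher.

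Further genes of glycolysis and glucose handling were called between the genotypes at 18 h alone. Of 42 listed, 26 were tested. None was called at 0, 1 or 5 h (all genes 2.36%, 1.48% and 5.66% higher and 2.38%, 1.36% and 3.13% lower). At an unadjusted p under 0.05, 3, 6 and 6 differed at these times, and DESeq2 called none of them. At 18 h none was higher and 2 lower in BMDM-Nur77-KO (all genes 5.76% and 4.17%). At an unadjusted p under 0.05, 5 were higher, while DESeq2 called none higher and 3 lower. With the GC correction 1 was higher and 3 lower. The 2 lower ones of the main fit were Txnip, an arrestin that restrains glucose uptake (log2 change -0.90 ± 0.10, adjusted p = 5.87e-08), and Slc2a9, a urate transporter of the glucose transporter family (log2 change -0.72 ± 0.10, adjusted p = 3.51e-06). At 5 h of LPS in BMDM-WT, 1 was higher and 4 lower (all genes 15.9% and 17.8%). Minpp1, an inositol phosphate phosphatase, went from 37.0 ± 2.45 to 92.4 ± 3.95 CPM (log2 change 1.32 ± 0.06, adjusted p = 1.42e-18). Myc, a transcription factor that drives glycolytic genes, went from 37.5 ± 2.32 to 6.65 ± 0.512 CPM (log2 change -2.49 ± 0.13, adjusted p = 3.12e-17), Pdk2, a kinase that shuts off pyruvate dehydrogenase, from 10.6 ± 1.68 to 1.85 ± 0.596 (log2 change -2.51 ± 0.19, adjusted p = 4.49e-13), and Slc16a7, which encodes MCT2, from 42.0 ± 5.18 to 18.0 ± 1.72 (log2 change -1.22 ± 0.16, adjusted p = 4.17e-08).

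Other genes of the HIF pathway and known HIF targets were called in both directions. Of 34 listed, 31 were tested. In BMDM-Nur77-KO, 5, 2, 1 and 6 were higher at 0, 1, 5 and 18 h, and 2, 2, 5 and 1 lower, where 2.36%, 1.48%, 5.66% and 5.76% of all genes were higher and 2.38%, 1.36%, 3.13% and 4.17% lower. Without the libraries that stood apart the counts were 1 and 3 at 5 h, where the higher gene was Bhlhe40 in place of Epas1, and the same at the other times. The median log2 change of the list at 18 h was 0.12, where that of all genes was -0.012. Of the higher ones at 18 h, Bhlhe40, a transcriptional repressor, had 8.74 ± 0.612 CPM in BMDM-WT and 22.2 ± 1.33 in BMDM-Nur77-KO (log2 change 1.34 ± 0.11, adjusted p = 1.72e-10), and Vegfa, the vascular growth factor, 111 ± 13.1 and 205 ± 17.5 (log2 change 0.89 ± 0.09, adjusted p = 6.59e-09). At 5 h the knockout had less Vegfa (log2 change -0.58 ± 0.10, adjusted p = 0.000146). Also lower at 5 h were Ndrg1, a gene of the stress response (log2 change -0.62 ± 0.10, adjusted p = 5.3e-05), and P4ha2, a collagen prolyl hydroxylase (log2 change -1.60 ± 0.28, adjusted p = 0.000141). P4ha2 was called lower, and Bhlhe40 higher, at 0 and 1 h as well. Neither Vegfa nor Ndrg1 was called at 5 h without the libraries that stood apart. With 5 h of LPS in BMDM-WT, 5 were higher and 4 lower (all genes 15.9% and 17.8%). P4ha1 went from 101 ± 2.56 to 255 ± 8.55 CPM (log2 change 1.34 ± 0.06, adjusted p = 5.68e-18) and Lox, lysyl oxidase, from 0.745 ± 0.167 to 12.8 ± 1.05 (log2 change 4.06 ± 0.34, adjusted p = 5.57e-12). Vegfa fell from 205 ± 8.44 to 26.1 ± 2.64 CPM (log2 change -2.97 ± 0.10, adjusted p = 7.48e-22), Bhlhe40 from 46.7 ± 3.62 to 5.11 ± 0.702 (log2 change -3.19 ± 0.12, adjusted p = 2.57e-20) and Ddit4, an inhibitor of mTOR signalling, from 1.24 ± 0.595 to 0.264 ± 0.158 (log2 change -2.19 ± 0.44, adjusted p = 5.57e-05). Lox at 0 h and Ddit4 at 5 h were near the lower end of what was measured, so their fold changes rest on few counts.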

How the data were processed

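Strand-specific mRNA libraries of BMDMs were sequenced as read pairs, and the titles in the labels gave the genotype, time and replicate of each of the 32 libraries. The authors aligned the reads to mm10 with HISAT2 2.1.0, filtered them by mapping quality (SAMtools) and used HOMER to count tags per RefSeq transcript. The authors deposited 1 table of 42361 transcripts, without normalization, and its values are estimated counts per transcript. Each mate of a read pair adds 0.5, and 28.6% of the values are not whole. The design written for the tests assumed plain counts, and the values were therefore rounded to whole numbers. Whether counting used the strand is not given in the sources used here, so overlapping genes on opposite strands may share tags.

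Of the transcripts, 42203 were named through RefSeq and 65 through GENCODE. The other 93 held 0.233% to 1.37% of the tags of a library and were left out. Each of 25067 genes was represented by its most counted transcript on average, which gave 8742362 to 15780926 counts per library (median 11847140). R 4.3.3 was used with edgeR 4.0.16 (TMM, quasi-likelihood test, 1 mean for each of the 8 groups, Benjamini-Hochberg adjustment). The 11186 genes tested had a mean RPKM above 1 in some group. The test was checked on simulated counts.

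Alternatives were DESeq2 1.42.0 and its size factors, filterByExpr and no filter, only the compared libraries, summed transcripts, other fold limits, a replicate block and leaving out each library in turn. Leaving out both libraries that stood apart and a correction of each library for the lowess trend on transcript GC content were chosen after seeing the data. The members and lists were chosen with earlier results of these data known. Named with a value in every library are members called between the genotypes or in the difference of the responses, the 5 largest called rises and the 5 largest called falls with LPS in BMDM-WT, and Hif1a, Gapdh, Pkm, Ldha, G6pdx and Pgd. From each list of further genes, up to 3 each way with the smallest adjusted p are named. A listed gene that this rule would name is counted but not reported here. No 2 libraries of a group agreed within sampling noise (chi-square per degree of freedom 1.93 to 115.7 over 48 pairs).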

Additional observations from a re-analysis of the deposited data

Results flagged for a closer look

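In 20 of 280 groups of 4 libraries (35 genes in 8 groups), 1 library lay far from the other 3 by Dixon's criterion, which chance alone meets in about 1 of 20 groups. BMDM-WT 18 h replicate 3 held 5 of them and BMDM-Nur77-KO 18 h replicate 4 held 4, both of which are libraries whose deviations ran against transcript GC content. In BMDM-WT 18 h replicate 3 these were Hk3 at 1044 CPM (others 1328 to 1371), Aldoa at 959.8 (1147 to 1155), Pkm at 1276 (1455 to 1462), Ldhb at 0.869 (1.81 to 1.90) and Hif1a at 212 (146 to 154). In BMDM-Nur77-KO 18 h replicate 4 they were Aldoa at 778 CPM (938 to 944), Hif1a at 479.5 (291 to 314), Bnip3 at 72.3 (36.1 to 42.2) and Pgd at 408 (471 to 482). BMDM-Nur77-KO 5 h replicate 1 had Tpi1 at 134 CPM (191 to 196). Before LPS, Hk3 stood at 365 CPM in BMDM-WT replicate 4 and at 323 in BMDM-Nur77-KO replicate 4, and Eno2 at 19.3 in BMDM-WT replicate 1. At 1 h, Aldoa stood at 708 CPM in BMDM-Nur77-KO replicate 1, Eno1 at 447 in BMDM-WT replicate 1 and at 369 in BMDM-Nur77-KO replicate 2, Hif1a at 218 in BMDM-WT replicate 4 and Pgd at 272 in BMDM-Nur77-KO replicate 3. Ldhb stood at 2.83 CPM in BMDM-WT 5 h replicate 4 and Pkm at 1107 in BMDM-Nur77-KO 18 h replicate 3.

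The response to LPS differed between the genotypes by the test of the difference itself for 3 genes at 5 h and 6 at 18 h. On the log2 scale, BMDM-Nur77-KO minus BMDM-WT, the differences at 5 h were -0.64 for Slc2a1, -1.02 for Pfkfb3 and 1.78 for Slc16a1. At 18 h they were 0.39 for Slc2a1, 0.48 for Hk1, -0.31 for Hk2, 0.55 for Pfkp, 0.44 for Pfkfb3 and 0.86 for Hif1a.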

How the results depend on the processing

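Of 109 calls of single members, 1872 of 1913 values under the alternatives kept the call, 41 lost it and none reversed. The counts of called members that moved by over 1.5 times are these. DESeq2 called 1 in the difference of the responses at 1 h. A fit to the compared libraries alone gave 4 between the genotypes at 0 h, 1 at 5 h and 3 in the difference of the responses at 1 h. Summed transcripts gave 1 between the genotypes at 0 h and 1 at 1 h. With no fold limit the counts were 4, 6, 14 and 14 between the genotypes at 0, 1, 5 and 18 h, then 5, 19 and 25 with LPS in BMDM-WT at 1, 5 and 18 h, 3, 24 and 27 in BMDM-Nur77-KO, and 29 and 31 from 5 to 18 h in BMDM-WT and BMDM-Nur77-KO. With a limit of 1 between the genotypes they were 1, 1, 1 and 3, and with a limit of 0.58 for LPS they were 2 at 1 h and 20 at 18 h in BMDM-WT, 2 and 24 in BMDM-Nur77-KO, and 23 from 5 to 18 h in BMDM-Nur77-KO. Leaving out 1 library gave 2 to 9 between the genotypes at 5 h. Leaving out both libraries that stood apart gave 2 between the genotypes at 5 h, and 1 and 10 in the difference of the responses at 1 and 18 h. Over all genes, that omission gave 23 higher and 14 lower responses at 1 h, and 1138 and 887 at 18 h. The GC correction gave 4 between the genotypes at 0 h, and 1 and 5 in the difference of the responses at 1 and 5 h. Over all genes, the correction gave 9 higher and 6 lower responses at 1 h, and 405 and 344 at 5 h. Beyond what fewer samples or another limit bring by construction, the cause was not tested.

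With the replicate number as a block, the counts between the genotypes were 2, 2, 5 and 7, and 0 of 109 calls were lost. Same-numbered libraries of different groups had a median correlation of deviations of -0.0227 (range -0.704 to 0.466, 29 of 112 pairs over 0.1). Differently numbered libraries had a median of 0.00407. The GC trends of single libraries enter these deviations, so the values cannot tell whether the numbers pair the libraries. DESeq2's size factors moved the scale of a group by -0.06 to 0.05 on the log2 scale. Depth limits Egln3, Gapdh, Slc2a3 and Eno3, which rest on few counts per library.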
